A study of Drosophila melanogaster with 8 samples.

Results

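Odorant-binding proteins (Obps) are small soluble proteins that insects secrete into the fluid around sensory neurons. The family was read here in mRNA of sorted brain cells of Drosophila melanogaster. Its members were all probe sets of the array whose only annotated gene symbol is Obp followed by a digit. The rule found 50 probe sets of 47 genes among the 18769 probe sets tested, which name 11982 single genes. Obp19a, Obp19c and Obp59a have 2 probe sets each. A further 4 probe sets carry an Obp symbol together with a second symbol, and they were not counted as members. lush, a member of the family by sequence, is annotated under its own name and is described with the partner genes.

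Flies of OK107-GAL4 crossed to UAS-mCD8-GFP (control) or to UAS-mCD8-GFP;dTip60E431Q were compared. dTip60E431Q is a transgenic Tip60 histone acetyltransferase (HAT) that lacks HAT activity, and it was expressed together with the GFP label in the cells that the driver marks. Newly eclosed flies were kept for 5 days in a vial of 30 flies with as many males as females, the environmental enrichment (EE) condition, or alone, the isolated (ISO) condition. GFP-positive cells were sorted from pooled male and female brains and taken by the study as Kenyon neurons of the mushroom body (MB), although OK107-GAL4 also marks other brain cells. Each of the 4 groups had 2 arrays, 8 in all, and both genotypes carried the driver and GFP. One array, dTip60E431Q ISO replicate 2, is labelled as 6 days old and all the rest as 5 days old. Whether the 2 arrays of each group held RNA of different fly pools is stated nowhere, and p-values cover only the spread from array to array, possibly a technical one.

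The Tip60 probe set had log2 signals of 8.07 to 8.41 in the 4 control arrays and 9.64 to 10.14 in the 4 dTip60E431Q arrays. The mean log2 signal of 16 Kenyon and pan-neuronal genes was 9.50 to 9.87 over the arrays, and 14 glial genes had 9.98 to 10.18, with the glial transcription factor repo at 10.10 to 10.29. The arrays of dTip60E431Q ISO were nearly alike (SD of their differences 0.183 log2 over all probe sets, against 0.358 to 0.479 in the other groups). They also differed from the other 6 arrays in 15 genes of midgut digestive proteases and related enzymes, with means of 8.27 and 8.27 against 4.24 to 5.49. In such bulk samples, fewer cells of a type and less RNA per cell cannot be told apart.

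In the fly, most Obps are made by the support cells that wrap the neurons of an olfactory or taste hair, and they bind odorants, pheromones or tastants in the sensillum lymph. The best known sets are in the antenna (Obp83a and Obp83b, Obp19a, Obp69a, Obp84a, lush) and in taste hairs of the labellum and legs (Obp49a and genes of the Obp56 and Obp57 clusters). Some Obps are not confined to sensory hairs: Obp44a is made by glia of the central nervous system, and Obp99b was found as a gene of the male head fat body under the sex-determination pathway. Neither Kenyon neurons nor other brain neurons are known as a main source of Obps.

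By mean over the arrays, 24 Obp probe sets of 23 genes lay above the median of all probe set means (6.46 log2) and 26 below it. The highest mean signals were those of Obp44a (13.25), Obp19d (12.87), Obp99c (12.19), Obp56d (11.51), Obp56e (10.45) and Obp18a (10.40), followed by Obp57c (10.13), Obp28a (9.53), Obp69a (9.50) and the brighter Obp19a probe set (9.36). A probe set's signal depends on its probes as well as on its mRNA, so this order is one of signal. The range over the 8 arrays differed widely between members. It was 0.42 log2 for Obp44a, 4.22 for Obp99a and 8.01 for Obp56g, whose 2 arrays of dTip60E431Q ISO had 4.62 and 4.54.

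**Figure D1:**
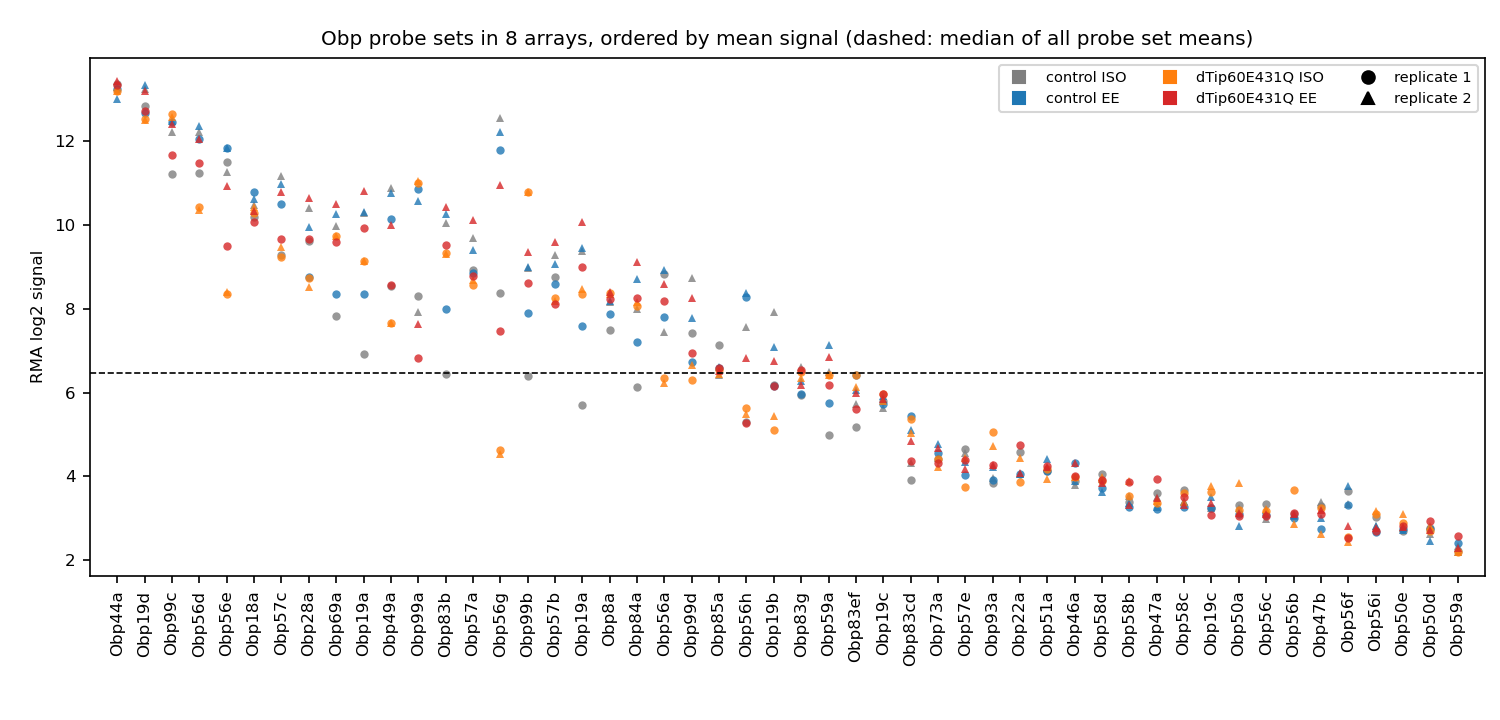
RMA log2 signal (y axis) of the 50 Obp probe sets in each of the 8 arrays, ordered along the x axis by mean signal. Colours mark the groups, circles replicate 1 and triangles replicate 2, the dashed line is the median of all probe set means (6.46), and genes with 2 probe sets appear as separate columns. Obp44a is high and even in all arrays, while members such as Obp56g, Obp99a, Obp99b and Obp19a spread over 3 or more log2 units.

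Each probe set was tested in 5 comparisons with limma: EE minus ISO in each genotype, dTip60E431Q minus control in each housing, and the interaction, which is the EE minus ISO difference in dTip60E431Q minus that in control. A call needed an adjusted p under 0.05 over all probe sets and a fold of at least 1.3. Counts at an unadjusted p under 0.05 and that fold are given beside. In EE minus ISO in control, 1 of 50 Obp probe sets was called (Obp99a, higher), against 0.0906% of all probe sets, and 4 were higher and 0 lower at the unadjusted threshold, against 2.38% and 2.03% of all. In EE minus ISO in dTip60E431Q, 1 was called (Obp99a, lower; 0.448% of all), and 5 were higher and 5 lower at the unadjusted threshold (2.69% and 3.47% of all). The family median was 0.10 and 0.18 log2 in these comparisons, with -0.02 and 0.01 for all probe sets. For the 24 members above 6.46 it was 0.46 and 0.63, with 0.01 and 0.01 for all probe sets above that signal, and for the 26 below it -0.02 in both.

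In dTip60E431Q minus control in ISO, 2 Obp probe sets were called (Obp99a higher and Obp56e lower), against 0.799% of all probe sets. At the unadjusted threshold 8 were higher and 9 lower, against 5.24% and 4.9% of all, so members stood on both sides. In dTip60E431Q minus control in EE, 1 was called (Obp99a, lower; 0.181% of all), and 1 was higher and 6 lower at the unadjusted threshold (2.43% and 2.66% of all). In the interaction, 1 was called (Obp99a, lower; 0.671% of all), and 6 were higher and 7 lower at the unadjusted threshold (5% and 5.19% of all). The medians were -0.01, 0.07 and 0.12 log2, with 0, 0.03 and 0.03 for all probe sets, and -0.41, 0.03 and 0.38 for the 24 members above 6.46, with 0 in each for all probe sets above that signal. Over the 5 comparisons, 23 Obp probe sets passed the unadjusted threshold at least once and 27 never did. These comparisons share arrays, so a member that stands out in one group enters several of them. The spread between replicates given above applies to these medians too.

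**Figure D2:**
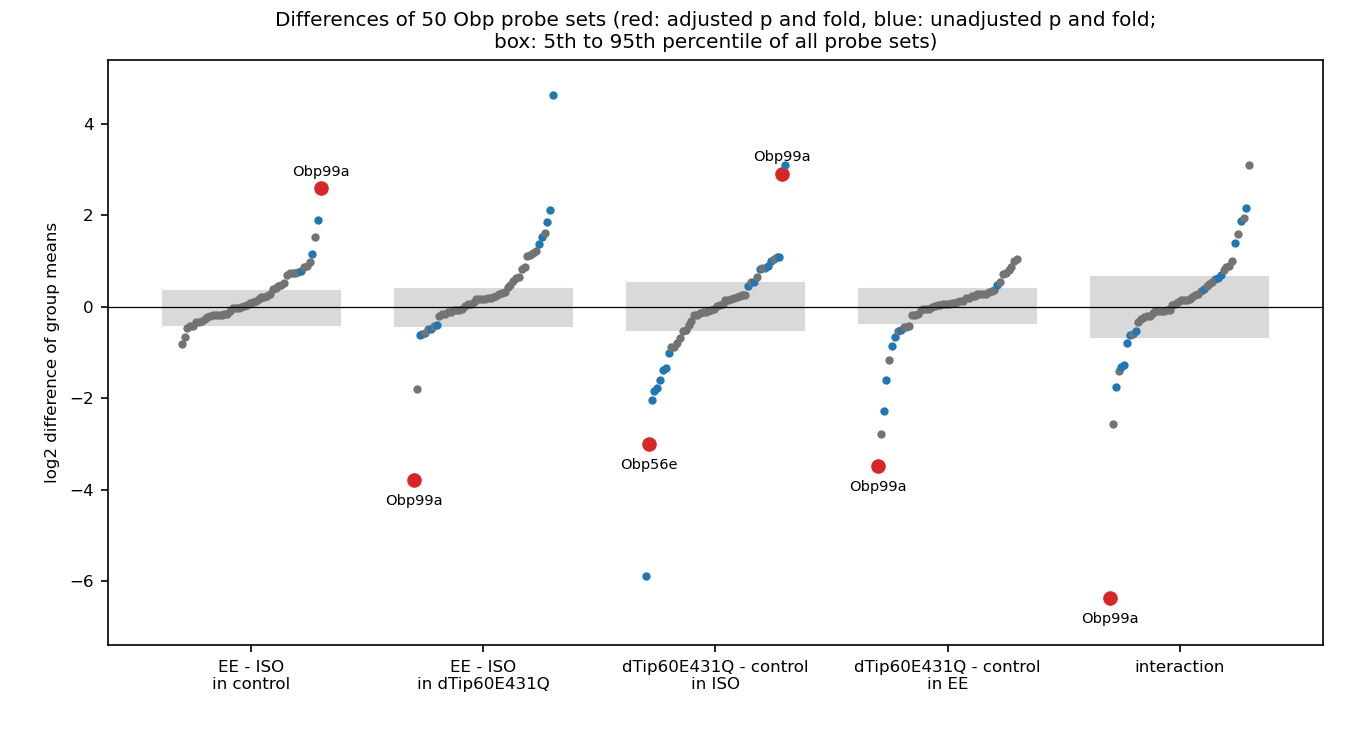
Log2 differences of group means (y axis) of the 50 Obp probe sets in the 5 comparisons (x axis), ordered by size within each. Red points passed the adjusted p and the fold, blue points the unadjusted p and the fold, and grey boxes span the 5th to 95th percentile of all probe sets. Obp99a is called in every comparison, upward in 2 and downward in 3, and Obp56e in 1.

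Obp99a, which the study names, was the only member called in all 5 comparisons, and its direction of response to housing was opposite in the genotypes. Its signal was 8.29 and 7.93 in the control ISO arrays, 10.85 and 10.57 in control EE, 10.99 and 11.04 in dTip60E431Q ISO, and 6.82 and 7.64 in dTip60E431Q EE (replicate 1 and then replicate 2 here and below). Control EE and dTip60E431Q ISO were thus high and the other 2 groups low, and no array of a high group overlapped one of a low group. EE minus ISO was 2.59 log2 in control (SE 0.27, 6.04-fold, 95% confidence interval 1.96 to 3.23, adjusted p = 0.0399) and -3.79 in dTip60E431Q (SE 0.27, 13.8-fold lower, -4.42 to -3.15, adjusted p = 0.00148). Obp99a was therefore higher in dTip60E431Q than in control in ISO (2.91, SE 0.27, 7.50-fold, adjusted p = 0.0043) and lower in EE (-3.48, SE 0.27, 11.1-fold, adjusted p = 0.0107). The interaction was -6.38 log2 (SE 0.38, -7.28 to -5.48, adjusted p = 0.000757). The study picked Obp99a from its microarray data as a gene whose response to EE was impaired in dTip60E431Q. The calls given here are therefore not independent of that choice. The study described the genes it picked as not misregulated overall on Tip60 HAT loss. A figure legend states this for a gene subset in ISO, and its methods name a t-test. In limma on these values, Obp99a differed between the genotypes in each housing, in opposite directions. By the methods' t-test its adjusted p was 0.444 in ISO and 0.837 in EE. The study also reported a rise of its selected genes with EE by quantitative RT-PCR of fly heads, without dTip60E431Q flies.

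The difference in control was nearest to the threshold. It stayed between 2.42 and 2.77 log2 when any array was left out, but its adjusted p then ranged from 0.0129 to 0.323. With the nearly identical dTip60E431Q ISO arrays counted as 1 sample, Obp99a kept its calls in EE minus ISO in dTip60E431Q (adjusted p = 0.0324) and in the interaction (0.0112). Its adjusted p was 0.189 in EE minus ISO in control, 0.0703 in dTip60E431Q minus control in ISO and 0.0654 in dTip60E431Q minus control in EE.

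**Figure D3:**
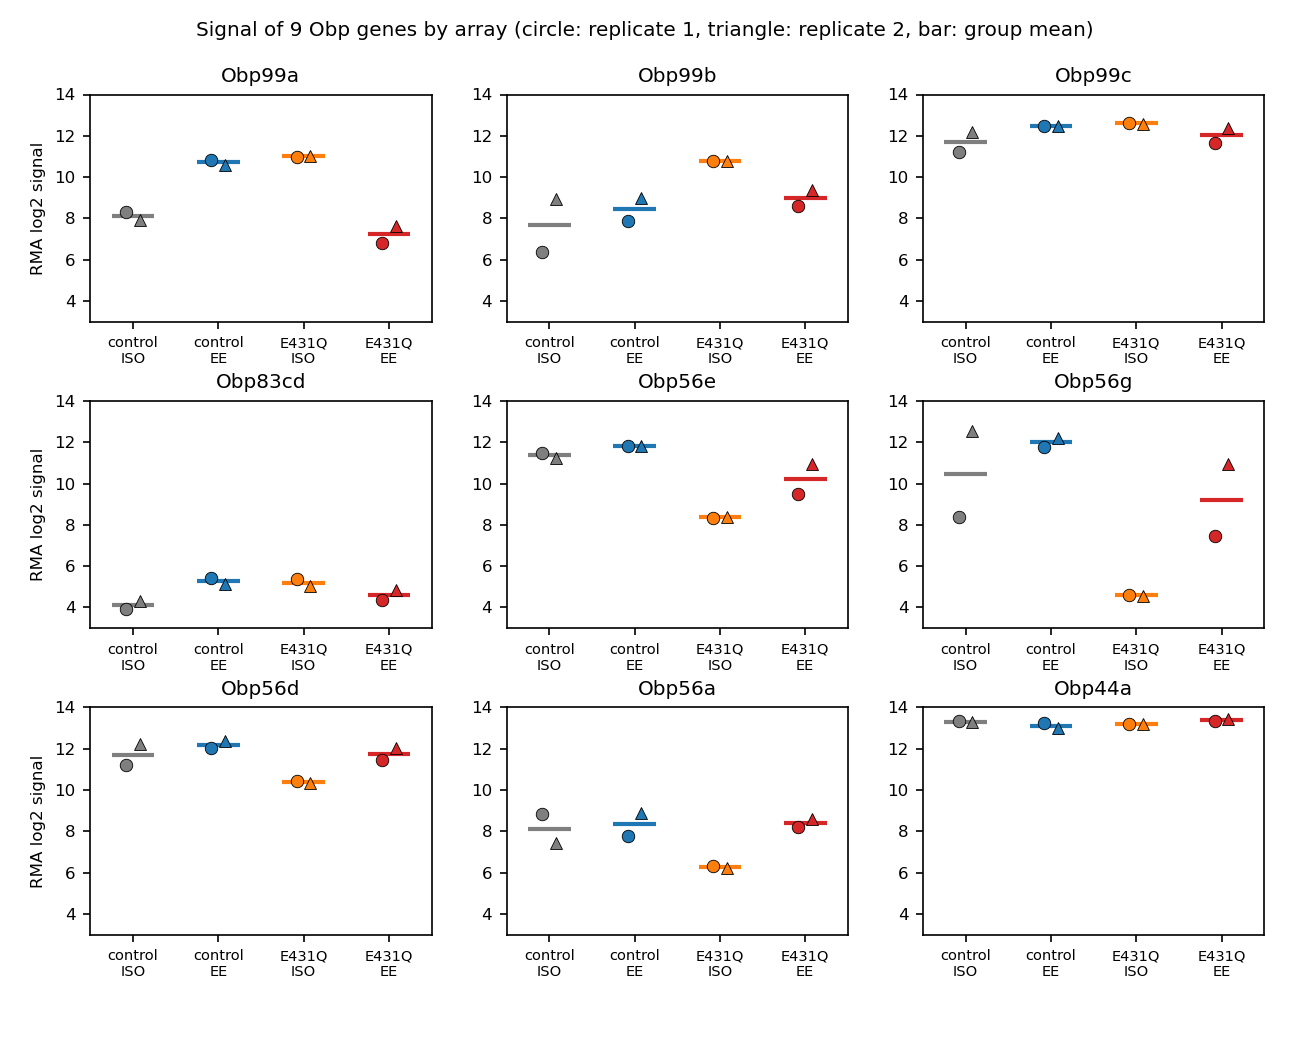
RMA log2 signal (y axis, from 3 to 14) of 9 Obp genes by group (x axis, with dTip60E431Q written as E431Q). Circles are replicate 1, triangles replicate 2 and bars group means of 2 arrays. Obp99a is high in control EE and dTip60E431Q ISO, Obp56e and Obp56g are low in dTip60E431Q ISO, and Obp44a is level.

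The genes most like Obp99a over the 8 arrays, among 7023 genes with a mean signal above 6.46, were named by the size of their Pearson r alone. This r, which is a description over 8 arrays in 4 groups and shares their grouping, was 0.98 for Tdh (threonine dehydrogenase), 0.976 for CG9547, 0.973 for Yp2 (a yolk protein), 0.971 for Epg5 (an autophagy factor), 0.97 for Mct1 (a monocarboxylate transporter), 0.967 for CG10512, 0.963 for slow and 0.959 for Mtp (microsomal triglyceride transfer protein). Tdh, for example, had 7.25 and 7.17 in control ISO, 8.27 and 8.07 in control EE, 8.18 and 8.42 in dTip60E431Q ISO, and 7.08 and 7.07 in dTip60E431Q EE. No other Obp probe set reached an r of 0.9 with Obp99a, the nearest being Obp83cd at 0.788.

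Genes of the fat body, the fly organ of storage and lipid metabolism, were high in the same groups as Obp99a. Of 13 measured fat body genes, 4 were called higher in EE in control and 4 lower in EE in dTip60E431Q (0.0906% and 0.448% of all probe sets called). In dTip60E431Q minus control, 4 were called higher in ISO and 3 lower in EE (0.799% and 0.181% of all). In the interaction 7 were called, all lower (0.671% of all). Called or not, all 13 had EE minus ISO differences above 0 in control and below 0 in dTip60E431Q. Lsp2, a storage protein, had 7.56 and 7.65 in control ISO, 12.02 and 12.02 in control EE, 12.14 and 12.17 in dTip60E431Q ISO, and 8.47 and 9.77 in dTip60E431Q EE. Gnmt, which methylates glycine, differed by 3.82 log2 between EE and ISO in control (SE 0.23, adjusted p = 0.00575) and by -3.14 in dTip60E431Q (SE 0.23, adjusted p = 0.00195). The r with Obp99a was 0.888 for Lsp2, 0.95 for Gnmt, 0.943 for tobi and 0.926 for Sardh. Over the 13 genes it ran from 0.506 for Fbp2, 0.56 for bmm and 0.603 for Fbp1 to 0.973 for Yp2. The mean signal of the list was 8.32 to 8.64 in control ISO, 10.14 to 10.17 in control EE, 10.16 in both dTip60E431Q ISO arrays, and 8.48 to 8.95 in dTip60E431Q EE. Of 15 hemocyte genes, 0 were called in any comparison by limma, with array means from 7.74 to 8.50. At the unadjusted threshold 9 were higher and 0 lower in EE in control (2.38% of all probe sets were higher), 0 higher and 4 lower in EE in dTip60E431Q (3.47% lower), 8 higher and 0 lower in dTip60E431Q minus control in ISO (5.24% higher), 0 higher and 3 lower in the same in EE (2.66% lower), and 0 higher and 8 lower in the interaction (5.19% lower), in which all 15 were below 0. The hemocyte genes past this threshold had the direction of Obp99a in each comparison. Called or not, 5 of the 15 were above 0 in EE minus ISO in dTip60E431Q, against the direction of Obp99a. In dTip60E431Q minus control in EE, 4 were. Flies of both sexes were pooled, and Yp1, Yp2, Yp3 and fit of the fat body list are also sex-biased genes. Of 7 measured sex-biased genes, 3 were called in the interaction, all lower, and 0 in the other comparisons. The r with Obp99a was 0.704 for dsx, -0.279 for msl-2 and -0.729 for tra. Shares of tissues and of the sexes in the pools cannot be told apart here. The part of fat body, other cells or sex in the Obp99a differences was not tested.

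Obp99a lies in a run of related genes with Obp99c, Obp99d and Obp99b, at most 5 other genes apart in the gene order of RefSeq's Release 6 assembly, and the 4 neighbours did not share a pattern. Obp99b, the fat body gene regulated by sex, had 6.39 and 8.96 in control ISO, 7.89 and 8.99 in control EE, 10.77 and 10.79 in dTip60E431Q ISO, and 8.62 and 9.35 in dTip60E431Q EE. The arrays of dTip60E431Q ISO were thus above all others, while those of the 3 other groups overlapped. The difference of dTip60E431Q ISO from control ISO was 3.11 log2 (SE 0.78, adjusted p = 0.17). Without control ISO replicate 2 it was 4.39 and one of 11 Obp calls in this comparison, in which 5.07% of all probe sets then passed. The others were Obp99a, Obp99c, Obp83cd, Obp83ef, Obp8a and Obp93a (higher) and Obp56a, Obp56e, Obp56f and Obp85a (lower).

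Obp99c, among the highest signals of the family, had 11.21 and 12.20 in control ISO, 12.45 and 12.46 in control EE, 12.64 and 12.56 in dTip60E431Q ISO, and 11.65 and 12.40 in dTip60E431Q EE. Its arrays of control EE and dTip60E431Q ISO were above the other 4, as for Obp99a but by less, with an interaction of -1.32 (SE 0.49, adjusted p = 0.417). Obp99d differed from both, with 7.42 and 8.72 in control ISO, 6.72 and 7.78 in control EE, 6.30 and 6.65 in dTip60E431Q ISO, and 6.95 and 8.26 in dTip60E431Q EE. It was lowest in the dTip60E431Q ISO arrays (-1.60 against control ISO, SE 0.59, adjusted p = 0.32).

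A second adjacent pair, Obp83cd and Obp83ef, double-domain members whose mean signal was below 6.46, was high in the same groups as Obp99a. Obp83cd had 3.91 and 4.31 in control ISO, 5.44 and 5.11 in control EE, 5.36 and 5.04 in dTip60E431Q ISO, and 4.37 and 4.84 in dTip60E431Q EE. Obp83ef had 5.17 and 5.73, 6.41 and 6.07, 6.41 and 6.14, and 5.61 and 5.98 in the same order. For both genes, the 4 arrays of control EE and dTip60E431Q ISO lay above the other 4. EE minus ISO was 1.16 log2 for Obp83cd in control (SE 0.23, adjusted p = 0.363) and 0.79 for Obp83ef (SE 0.23, adjusted p = 0.638), neither called. The interactions were -1.75 (SE 0.32, adjusted p = 0.0934) and -1.27 (SE 0.33, adjusted p = 0.23). Both were called in the interaction without control ISO replicate 2, at -1.95 and -1.56, when 3.4% of all probe sets passed. The neighbour Obp83g showed no such order, with 5.94 to 6.61 over the 8 arrays.

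Several genes named Obp56 were lowest in dTip60E431Q ISO. Obp56a to Obp56f form a run of neighbours, while Obp56g, with Obp56h and Obp56i near it, lies 112 genes past Obp56f. Obp56e had 11.50 and 11.25 in control ISO, 11.82 and 11.83 in control EE, 8.34 and 8.39 in dTip60E431Q ISO, and 9.50 and 10.93 in dTip60E431Q EE. All 4 control arrays were above all 4 dTip60E431Q arrays, and dTip60E431Q EE was above dTip60E431Q ISO. Obp56e fell in dTip60E431Q ISO against control ISO by 3.01 log2 (SE 0.40, 8.04-fold, adjusted p = 0.0266). This call was lost without control ISO replicate 1 (adjusted p = 0.0881), without either control EE array (0.065), without dTip60E431Q ISO replicate 1 (0.249) or replicate 2 (0.253) and with both dTip60E431Q ISO arrays as 1 sample (0.259), while the difference stayed between -3.13 and -2.88 when any array was left out. In EE the genotype difference was -1.61 (SE 0.40, adjusted p = 0.377), and EE minus ISO in dTip60E431Q was 1.85 (SE 0.40, adjusted p = 0.221).

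Obp56g, a member also known from the male reproductive tract, where it is part of the seminal fluid, had the widest range: 8.37 and 12.55 in control ISO, 11.77 and 12.21 in control EE, 4.62 and 4.54 in dTip60E431Q ISO, and 7.47 and 10.94 in dTip60E431Q EE. Every array of dTip60E431Q ISO lay below every other array, but replicates differed by 4.18 log2 in control ISO and 3.47 in dTip60E431Q EE. The differences of -5.88 log2 against control ISO (SE 1.47, adjusted p = 0.167) and 4.63 for EE minus ISO in dTip60E431Q (SE 1.47, adjusted p = 0.468) were not called, and their SE compares with 0.27 for Obp99a on the same number of arrays. Obp56d had 11.22 and 12.22 in control ISO, 12.03 and 12.36 in control EE, 10.42 and 10.34 in dTip60E431Q ISO, and 11.46 and 12.05 in dTip60E431Q EE, again with dTip60E431Q ISO lowest (-1.35 against control ISO, SE 0.34, adjusted p = 0.167).

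Obp56a had 8.82 and 7.44 in control ISO, 7.79 and 8.91 in control EE, 6.34 and 6.23 in dTip60E431Q ISO, and 8.19 and 8.59 in dTip60E431Q EE. EE minus ISO in dTip60E431Q was 2.11 log2 (SE 0.50, adjusted p = 0.269), with no overlap of the 2 groups, against overlapping control groups. When only the dTip60E431Q arrays were fitted, Obp56a was called at that difference (adjusted p = 0.00448), as was Obp99b at -1.79 (0.042), with 0.9% of all probe sets called. Obp56h, which affects male mating and cuticular pheromones, had 5.31 and 7.56 in control ISO, 8.28 and 8.37 in control EE, 5.62 and 5.49 in dTip60E431Q ISO, and 5.27 and 6.82 in dTip60E431Q EE. Its control EE arrays were above all others, by 1.89 log2 over control ISO (SE 0.74, adjusted p = 0.81) and by 2.29 over dTip60E431Q EE (-2.29 as dTip60E431Q minus control, SE 0.74, adjusted p = 0.535).

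Obp56f, next to Obp56e, had low signal throughout, with 3.66 and 3.34 in control ISO, 3.31 and 3.78 in control EE, 2.55 and 2.45 in dTip60E431Q ISO, and 2.53 and 2.83 in dTip60E431Q EE. All control arrays were above all dTip60E431Q arrays, by 1 log2 in ISO (-1 as dTip60E431Q minus control, SE 0.20, adjusted p = 0.102) and 0.86 in EE (-0.86, SE 0.20, adjusted p = 0.313). In the same run, Obp56b and Obp56c had 2.86 to 3.68 and 2.99 to 3.34 over the arrays and passed the unadjusted threshold nowhere.

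Members from inside and outside the run of Obp56a to Obp56f followed Obp56g across the arrays. By Pearson r over 8 arrays, a description of genes singled out after their values were seen, those at 0.9 or above were Obp49a (0.982), Obp56d (0.979), Obp56e (0.913) and Obp57c (0.904). Obp49a, which in taste hairs carries bitter compounds that dampen the sweet response, had 8.53 and 10.88 in control ISO, 10.13 and 10.76 in control EE, 7.65 and 7.65 in dTip60E431Q ISO, and 8.56 and 9.99 in dTip60E431Q EE. Obp57c had 9.28 and 11.15, 10.49 and 10.98, 9.23 and 9.47, and 9.65 and 10.79 in the same order. The mean of these 5 genes was 8.05 and 8.08 in dTip60E431Q ISO, against 9.78 and 11.61 in control ISO, 11.25 and 11.63 in control EE, and 9.33 and 10.94 in dTip60E431Q EE. The dTip60E431Q ISO minus control ISO difference of Obp49a was -2.05 log2 (SE 0.77, adjusted p = 0.328). The genes most like Obp56g outside the family were CG11368 (0.996), CG12158 (0.996) and CG10205 (0.983), which have no named function in the files. The low arrays of these genes are those with high midgut protease signal, and the part of midgut RNA in these values was not tested.

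Obp83b, Obp19a and Obp69a, which are Obps of the antenna, differed more between the arrays of control ISO than between the group means, whereas the antennal Obp28a, described further on, did not. Obp83b, the antennal protein OS-E, had 6.44 and 10.05 in control ISO, 7.98 and 10.25 in control EE, 9.33 and 9.31 in dTip60E431Q ISO, and 9.51 and 10.42 in dTip60E431Q EE. Obp19a (brighter probe set) had 6.93 and 10.27, 8.35 and 10.31, 9.14 and 9.14, and 9.92 and 10.80, and its second probe set ran in parallel (5.71 to 10.06). Obp69a had 7.83 and 9.98, 8.35 and 10.26, 9.74 and 9.74, and 9.59 and 10.50. In all of these genes replicate 1 of control ISO was lowest, replicate 1 of control EE next, and replicate 2 of dTip60E431Q EE highest, so that the control groups overlapped each other and 0 of them passed the unadjusted threshold in any comparison.

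The genes most like Obp83b over the 8 arrays included other Obps and lush. The r was 0.996 for a5 and 0.993 for Os-C, small secreted proteins of the antenna, 0.98 each for Obp19a, lush and Obp69a, 0.977 for a10, 0.973 for Cyp4d2 and 0.965 for Obp84a (6.13 to 9.10). lush, which is needed for the response to the male pheromone cis-vaccenyl acetate, had 4.92 and 8.49 in control ISO, 5.88 and 8.76 in control EE, 8.26 and 8.12 in dTip60E431Q ISO, and 8.35 and 9.35 in dTip60E431Q EE. Obp59a, an Obp of humidity sensing, reached 0.96 with its brighter probe set (4.99 to 7.13) while its other probe set stayed at 2.19 to 2.57. The mean of Obp83b, Obp19a, Obp69a, Obp84a and Obp59a was 6.46 and 8.96 in control ISO, 7.53 and 9.33 in control EE, 8.54 and 8.55 in dTip60E431Q ISO, and 8.69 and 9.54 in dTip60E431Q EE. These genes were also singled out after their values were seen, and arrays that share RNA from the same pool of brains are not independent in them.

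**Figure D4:**
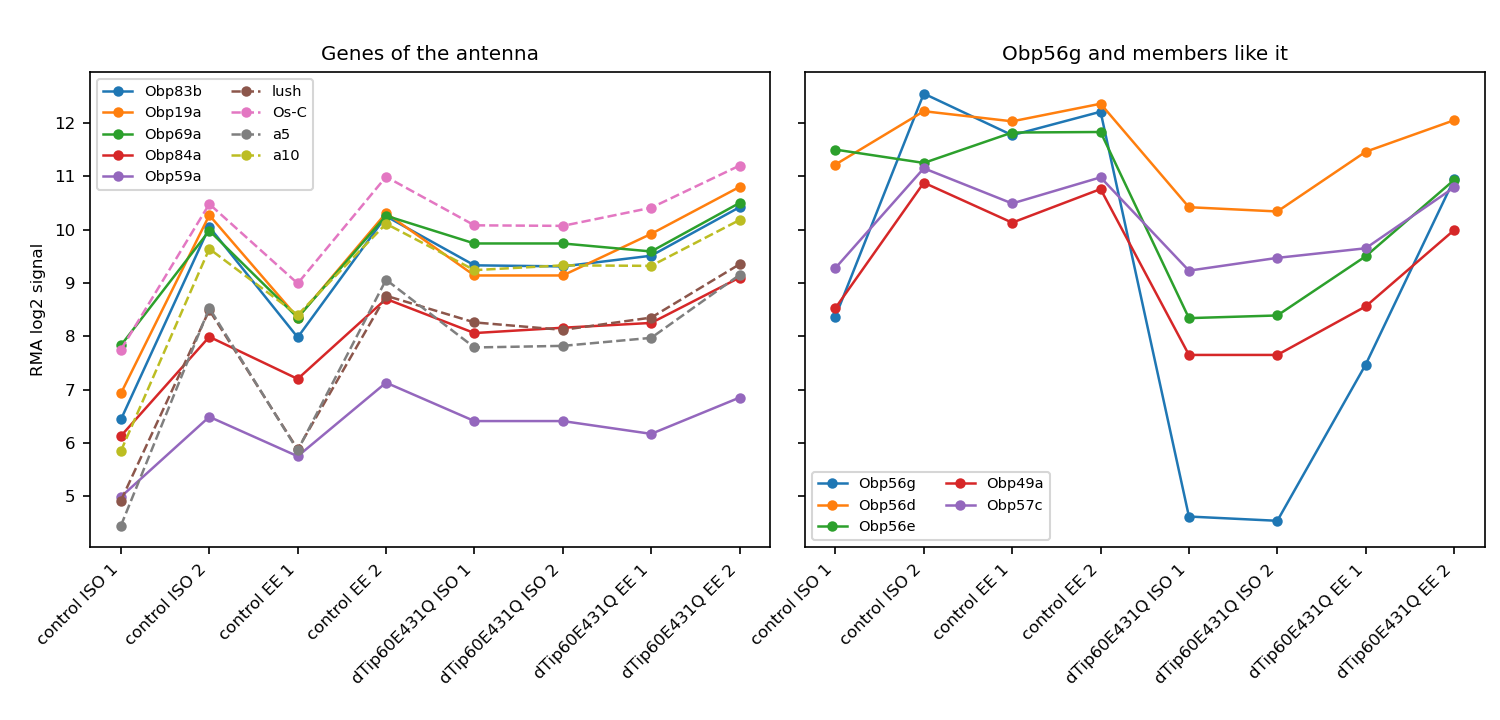
RMA log2 signal (y axis) in the 8 arrays (x axis) of antennal genes on the left, with Obps as solid lines and partner genes dashed, and of Obp56g and the members like it on the right. Lines join the arrays to show parallel patterns and have no order in time. The antennal genes shown, which were singled out by their r with Obp83b, are lowest in control ISO replicate 1. Other antennal genes did not all follow them. The mean of the Obp56g set is lowest in both dTip60E431Q ISO arrays. Obp57c alone has a lower value in control ISO replicate 1 (9.28) than in dTip60E431Q ISO replicate 2 (9.47).

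In 3 of the 4 groups, Obps of higher signal differed more between the arrays of a group than most genes of such signal. Of the 24 Obp probe sets with a mean signal above 6.46, replicate 2 exceeded replicate 1 by more than 1 log2, or fell below it by as much, in 12 (50%) for control ISO, 9 (37.5%) for control EE, 0 for dTip60E431Q ISO and 9 (37.5%) for dTip60E431Q EE. The share of all 9384 probe sets above that signal was 3.19%, 1.91%, 0% and 2.31%. Replicate 2 was the higher one for 19, 21, 10 and 23 of the 24 Obp probe sets, with medians of 0.99, 0.52, 0 and 0.90 log2. Among all 9384 it was the higher one for 3613, 4957, 4463 and 3052, with medians of -0.08, 0.01, -0.01 and -0.11. The median absolute difference of the 24 was 1.14, 0.518, 0.0792 and 0.896 log2, against 0.201, 0.0991, 0.0687 and 0.20 for all probe sets above that signal. For the 26 below that signal it was 0.131, 0.267, 0.19 and 0.244, against 0.214, 0.124, 0.0975 and 0.185 for all probe sets tested. This reference also holds the probe sets above 6.46. The 26 were below it in control ISO and above it in the other groups. The partner genes of chemosensation moved alike, with replicate 2 higher for 20, 19, 13 and 18 of 22 genes. The 16 Kenyon and pan-neuronal genes were lower in replicate 2 for 16 of 16 in control ISO and in dTip60E431Q EE, with medians of -0.25 and -0.29 log2. In both of these groups most probe sets above 6.46 were also lower in replicate 2. In control EE and in dTip60E431Q ISO, replicate 2 was the higher one for 7 of the 16, with a median of -0.02 log2 in each.

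**Figure D5:**
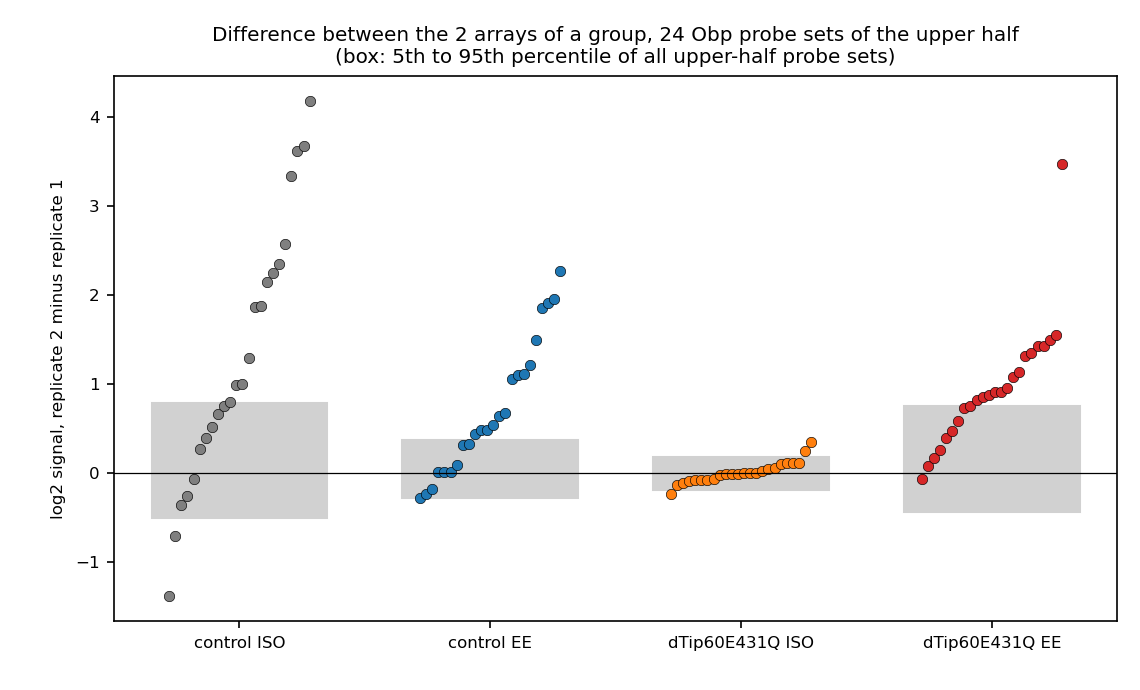
Replicate 2 minus replicate 1 in log2 signal (y axis) for the 24 Obp probe sets of mean signal above 6.46 in each group (x axis), ordered by size, with grey boxes from the 5th to the 95th percentile of all probe sets above 6.46. Most Obps lie above the box in control ISO, control EE and dTip60E431Q EE, and within or near it in dTip60E431Q ISO.

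Of the 6 brightest members, Obp99c, Obp56d and Obp56e ranged over 1.43, 2.02 and 3.5 log2 as described above, while Obp44a, Obp19d and Obp18a ranged over 0.42, 0.84 and 0.72. Obp44a, the Obp of central nervous system glia, had 13.36 and 13.28 in control ISO, 13.23 and 13.00 in control EE, 13.18 and 13.18 in dTip60E431Q ISO, and 13.34 and 13.42 in dTip60E431Q EE. Its interaction was 0.40 log2 (SE 0.16, adjusted p = 0.455), and none of its differences in the 4 other comparisons passed the unadjusted threshold. Of 14 other glial genes, 0 were called in any comparison by limma and 1 passed the unadjusted threshold in 1 of them. This was Mdr65, a transporter of the blood-brain barrier, 0.53 higher in dTip60E431Q ISO than in control ISO. In that comparison 5.24% of all probe sets were higher. Obp19d, an Obp of antenna and taste organs, had 12.82 and 13.23, 12.66 and 13.34, 12.52 and 12.50, and 12.71 and 13.19 in the order of groups above, and passed no threshold. Obp18a had 10.19 and 10.46 in control ISO, 10.79 and 10.62 in control EE, 10.29 and 10.41 in dTip60E431Q ISO, and 10.07 and 10.33 in dTip60E431Q EE, with dTip60E431Q EE 0.50 below control EE (-0.50, SE 0.15, adjusted p = 0.471).

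Obp28a, an abundant Obp of the antenna, did not follow Obp83b (r = 0.415) and had 9.61 and 10.40 in control ISO, 8.75 and 9.95 in control EE, 8.74 and 8.51 in dTip60E431Q ISO, and 9.67 and 10.63 in dTip60E431Q EE. EE minus ISO was 1.52 in dTip60E431Q (SE 0.48, adjusted p = 0.463) and the interaction 2.17 (SE 0.68, adjusted p = 0.322), opposite in sign to that of Obp99a. Obp19b, next to Obp19a in the gene order, had 6.19 and 7.92 in control ISO, 6.15 and 7.09 in control EE, 5.11 and 5.45 in dTip60E431Q ISO, and 6.15 and 6.76 in dTip60E431Q EE, with dTip60E431Q ISO below all other arrays (-1.77 against control ISO, SE 0.57, adjusted p = 0.255). Obp8a had 7.48 and 8.15, 7.87 and 8.19, 8.37 and 8.36, and 8.24 and 8.40, with a dTip60E431Q ISO minus control ISO difference of 0.55 (SE 0.23, adjusted p = 0.371) that passed the unadjusted threshold in 1 of 8 fits with an array left out.

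Several members of low signal passed only the unadjusted threshold. Obp93a had 3.84 and 3.96 in control ISO, 3.92 and 4.23 in control EE, 5.07 and 4.73 in dTip60E431Q ISO, and 4.28 and 4.28 in dTip60E431Q EE. It was 1 log2 higher in dTip60E431Q ISO than in control ISO (SE 0.16, adjusted p = 0.0505), just outside the threshold, and was called there at an adjusted p of 0.0484 with a mean-variance trend. The dimmer Obp19c probe set had 3.25 and 3.25, 3.25 and 3.51, 3.63 and 3.77, and 3.08 and 3.36, again with dTip60E431Q ISO highest, while the brighter one stayed at 5.64 to 5.97. Obp56i had 3.03 and 2.83, 2.68 and 2.81, 3.10 and 3.17, and 2.70 and 2.78, and Obp47a had 3.60 and 3.52, 3.22 and 3.28, 3.36 and 3.42, and 3.94 and 3.49. Obp47b had 3.30 and 3.39, 2.74 and 3.01, 3.24 and 2.64, and 3.11 and 3.21, with overlapping groups. Differences of this size at such signal are no more than 1 log2, and the files give no detection call to separate them from background.

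The remaining members passed no threshold. Among those of mean signal above 6.46, Obp57a (8.57 to 10.12) and Obp57b (8.10 to 9.58), next to Obp57c, had r of 0.715 and 0.773 with Obp56g, and Obp85a stayed at 6.43 to 7.13. Below it, Obp73a, Obp57e, Obp22a, Obp51a, Obp46a, Obp58b, Obp58c, Obp58d, Obp50a, Obp50d and Obp50e lay between 2.46 and 4.78 in all arrays. By position, 33 of the 50 probe sets belong to genes in runs with at most 10 other genes between members, including Obp19a to Obp19d, Obp56a to Obp56f, Obp57a to Obp57c, Obp58b to Obp58d and the Obp99 run. Within the Obp19 run the genes had different patterns: Obp19a followed Obp83b, Obp19b was low in dTip60E431Q ISO, and Obp19d varied by only 0.84 log2.

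Partner genes of olfaction and taste were read beside the family. Of 22 measured (odorant, gustatory and ionotropic receptors, co-receptors, the pheromone sensor Snmp1, ppk channels and other secreted proteins of the antenna), 0 were called in any of the 5 comparisons by limma. At the unadjusted threshold 0 were higher and 1 lower in EE in control (2.38% and 2.03% of all probe sets). In EE in dTip60E431Q 2 were higher and 0 lower (2.69% and 3.47% of all). In dTip60E431Q minus control, 0 were higher and 3 lower in ISO (5.24% and 4.9%), and 1 higher and 0 lower in EE (2.43% and 2.66%). The interaction had 1 higher and 0 lower (5% and 5.19%). The receptor gene Or42b accounted for 4 of these 8 passes, ppk23 for 2, and Snmp2 and ppk29 for 1 each. Or42b had an EE minus ISO difference of 1.08 log2 in dTip60E431Q (SE 0.23, adjusted p = 0.221) and an interaction of 1.52 (SE 0.33, adjusted p = 0.162). Its signal was low, at 3.80 to 5.31 over the arrays, with no detection call to separate it from background. The co-receptor Orco had 5.36 and 6.45 in control ISO, 5.16 and 6.30 in control EE, 5.46 and 5.39 in dTip60E431Q ISO, and 6.02 and 6.85 in dTip60E431Q EE, with replicate 2 higher in 3 of the 4 groups as for Obp83b. Its r with Obp83b was 0.755, and that of Snmp1 was 0.657. Orco (5.16) and Snmp1 (6.49) were lowest in control EE replicate 1, unlike Obp83b. Among the other receptor and co-receptor genes, r with Obp83b ran from 0.172 for Gr21a, 0.259 for Ir8a and 0.341 for Or42b to 0.753 for Gr63a.

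Of 12 CheA and CheB genes, secreted or lipid-binding proteins of taste hairs, 0 were called in any comparison by limma. At most 3 passed the unadjusted threshold in one, 2 higher and 1 lower in dTip60E431Q minus control in EE (2.43% and 2.66% of all probe sets). CheA87a had 5.64 and 7.51 in control ISO, 5.02 and 5.71 in control EE, 3.73 and 3.48 in dTip60E431Q ISO, and 5.62 and 6.23 in dTip60E431Q EE, lowest in dTip60E431Q ISO as for Obp56g. Its difference from control ISO was -2.97 log2 (SE 0.57, adjusted p = 0.0955). Among 6 genes of sensillum support and other appendage cells, lush included, 0 were called in any comparison by limma. At most 2 passed the unadjusted threshold in one, both higher in dTip60E431Q minus control in ISO (5.24% of all probe sets). nompA, a protein of the support cells of sensory organs, differed by 1 log2 between EE and ISO in control (SE 0.28, adjusted p = 0.589) and by -0.90 in dTip60E431Q (SE 0.28, adjusted p = 0.442). The array means of those 6 genes were 7.22 and 8.08 in control ISO, 7.55 and 8.26 in control EE, 8.03 and 8.08 in dTip60E431Q ISO, and 7.97 and 8.34 in dTip60E431Q EE. Replicate 1 of both control groups was lowest in these means, which lush (4.92 and 5.88 there) and ss (4.20 and 3.73) moved most. The r with Obp83b was 0.98 for lush, 0.715 for ss and 0.446 for nompA, against -0.0987 for Poxn, -0.267 for pros and -0.693 for sv, whose signal was highest in control ISO replicate 1 (8.31). Whether RNA of antennal or taste tissue varied between the sorted samples was not tested.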

How the data were processed

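RNA of FACS-sorted GFP-positive brain cells was measured on 8 Affymetrix Drosophila expression arrays. The authors made the deposited log2 values with RMA, which corrects background, normalizes by quantiles and summarises each probe set (version not given in the sources used here). These values, from 1.60 to 13.77 log2 over the probe sets tested, were used as deposited. They carry no detection call or scan date, and precision is limited by 2 arrays in each group. After 183 Affymetrix control probe sets were left out, 18769 of 18952 were tested.

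Members were chosen by gene symbol in the array annotation, and all 50 matched the RefSeq gene table by gene ID. Values in every array are given for members past either threshold in any comparison and for the 10 of highest mean signal. The members and the marker lists were chosen with earlier results of these data known. Gene order came from the RefSeq gene table of Release 6, and sequences were not used here.

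Group means were compared in limma 3.58.1 under R 4.3.3, all groups sharing 1 estimate of spread (4 residual and 2.91 prior degrees of freedom), with Benjamini-Hochberg adjustment over all probe sets. The fit was tested on simulated data. Alternatives were other normalizations, only the compared arrays, array weights, a mean-variance trend, a replicate block, low signal left out, 1 value per gene, 1.1 as the fold threshold, the methods' t-test, dTip60E431Q ISO arrays averaged, and each array left out in turn.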

Additional observations from a re-analysis of the deposited data

Results flagged for a closer look

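Obp99a is given here because its response to housing differed between the genotypes by a test of the difference itself. The interaction of genotype and housing was -6.38 log2 (SE 0.38, limma adjusted p = 0.000757), with EE minus ISO at 2.59 in control and -3.79 in dTip60E431Q. The 2 control EE arrays were above both control ISO arrays, and the 2 dTip60E431Q EE arrays were below both dTip60E431Q ISO arrays. It was the only one of 50 Obp probe sets called in the interaction, against 0.671% of all probe sets. Without control ISO replicate 2, 3 more were called (Obp99b, Obp83cd and Obp83ef), with 3.4% of all probe sets.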

How the results depend on the processing

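Obp99a kept its direction in every alternative. Its interaction stayed called (adjusted p 0.000299 to 0.0121), but was not run with the methods' t-test or with only the compared arrays. EE minus ISO in dTip60E431Q stayed called except by the methods' t-test. In EE minus ISO in control its call was lost, with 0 Obp probe sets called, under cyclic loess (2.58, adjusted p = 0.072), repeated quantile normalization (2.57, 0.0513), only the compared arrays (2.59, 0.117), the dTip60E431Q ISO arrays averaged (2.59, 0.189) and the methods' t-test (2.59, 1). The t-test left 0 Obp calls in the 4 comparisons it was run in (Obp99a -3.79, 2.91 and -3.48 in the other 3, adjusted p 0.444 to 0.837; Obp56e -3.01, 0.391) and 2, 5, 5 and 1 probe sets at the unadjusted threshold. Averaging the dTip60E431Q ISO arrays left 0 calls in dTip60E431Q minus control in ISO (Obp99a 2.91, 0.0703; Obp56e -3.01, 0.259; 11 unadjusted) and in EE (-3.48, 0.0654), and 7 unadjusted in the interaction. Obp56e lost its call with a mean-variance trend (-3.01, 0.0543). With only the compared arrays, EE minus ISO in dTip60E431Q had 3 calls and 18 probe sets at the unadjusted threshold. With low signal left out, which leaves 24 members, the unadjusted counts were 2, 6, 11, 4 and 6 in the 5 comparisons, and the family median was 0.63 in EE minus ISO in dTip60E431Q and -0.41 in dTip60E431Q minus control in ISO. Where no cause is given by the setting itself, the cause was not tested.

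The labels do not say that replicate numbers pair the arrays. Same-numbered arrays deviated together in 2 of 6 pairs of groups over all probe sets (r = 0.312 and 0.263, the others -0.0862 to -0.00537), and in 3 of 6 over the Obp probe sets (r = 0.677, 0.69 and 0.387, the others -0.0569 to 0.0298), those among control ISO, control EE and dTip60E431Q EE. With the replicate number as a block, Obp99a was not called in EE minus ISO in control (2.59, adjusted p = 0.0866; 0 Obp calls), and 16 Obp probe sets passed the unadjusted threshold in EE minus ISO in dTip60E431Q. It changed no other call of Obp99a or Obp56e.

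With each array left out in turn, Obp calls were 0 to 1, 1 to 2, 0 to 11, 0 to 2 and 1 to 4 in EE minus ISO in control, EE minus ISO in dTip60E431Q, dTip60E431Q minus control in ISO, the same in EE, and the interaction. Unadjusted counts were 2 to 19, 8 to 15, 12 to 20, 4 to 10 and 7 to 14, and Obp99a differences 2.42 to 2.77, -4.20 to -3.38, 2.73 to 3.09, -3.88 to -3.07 and -6.79 to -5.97. Obp56e was also called in EE minus ISO in dTip60E431Q and in the interaction without dTip60E431Q EE replicate 1, and in dTip60E431Q minus control in EE without replicate 2; Obp56d took its place in ISO without control ISO replicate 1. Obp56e lost its call in ISO without control ISO replicate 1, either control EE array or either dTip60E431Q ISO array. The 11, 4 and 19 were without control ISO replicate 2, when 15.2% of all probe sets passed the unadjusted threshold in EE minus ISO in control, against 4.41% with it. Obp99a lost its call in EE minus ISO in control when control ISO replicate 1, either control EE array or either dTip60E431Q ISO array was left out. It lost it in dTip60E431Q minus control in EE without either control EE array or either dTip60E431Q ISO array, and in ISO without either dTip60E431Q ISO array. All 51 differences past the unadjusted threshold kept their sign in 14 alternatives. These alternatives reuse the arrays on which the 51 were picked, so a kept sign is no independent support. Not all of the 51 kept an unadjusted p under 0.05 in them. A lone array of a group was assumed to vary like the other groups.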
